A study of Mus musculus with 10 samples.

Results

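Checkpoint and costimulatory ligands are surface or secreted proteins through which a B cell tells T cells and phagocytes whether to act, and 10 of their genes were followed in mouse B-cell lymphomas treated with Adriamycin (ADR, doxorubicin). The genes were Cd274, Pdcd1lg2, Cd80, Cd86, Cd40, Icosl, Tnfrsf14, Cd47, Pvr and Lgals9, 10 of the 18193 genes that had a named probe set on the arrays. The group was picked from the measured ADR change of Cd274, which was higher in all 5 lymphoma pairs, so the ADR changes of its genes are given here as descriptions, with no test of a single gene. Where a gene had several probe sets, the one with the highest average of the 10 arrays stands for it. The lymphomas arose in Emu-myc mice, whose Myc transgene is driven in the B-cell lineage, and both groups lacked Suv39h1 (Suv39h1-/-), a histone H3 lysine 9 methyltransferase. All cells carried a retroviral Bcl2, were selected with puromycin and were cultured over NIH 3T3 fibroblast feeders that had been gamma-irradiated. Cells of each of 5 lymphomas (lymphoma_5783, lymphoma_7890, lymphoma_9250, lymphoma_1032 and lymphoma_4936) were left untreated or received 0.05 µg/ml ADR for 5 days, with 1 array per condition. The labels do not state the ages of the mice.

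T cells read these ligands through receptors with opposite effects. CD80 and CD86 bind CD28, which costimulates, and CTLA-4, which restrains, while PD-L1 (Cd274) and PD-L2 (Pdcd1lg2) bind the inhibitory receptor PD-1. B cells are antigen-presenting cells that receive help through CD40, display CD86 on activation and can carry PD-L1, which interferon gamma induces in many cell types. CD47 acts on phagocytes, where it engages SIRP-alpha and restrains engulfment.

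Levels below are log2 array signals. A change is the ADR signal minus the untreated signal of the same lymphoma, also in log2, so a change of 1 is a doubling. Levels of different genes come from different probes and are not compared with each other. Of the 10 genes, 8 had signals above the table median of 4.43 on at least 5 of 10 arrays, the filter for testing, and Pdcd1lg2 and Tnfrsf14 did not. In the paired limma fit over 11472 genes, 0 of the 8 had an adjusted p (Benjamini-Hochberg) below 0.05, beside 0% of all tested genes. A higher signal in all 5 lymphomas was found for 1 of the 8 and for 4.67% of all genes, and a lower signal in all 5 for 0 of the 8 and 4.82% of all genes. Those shares come from the contrast that chose the group and nothing is read from them. The median change was -0.06 over the 8 genes and -0.02 over all tested genes.

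**Figure D1:**
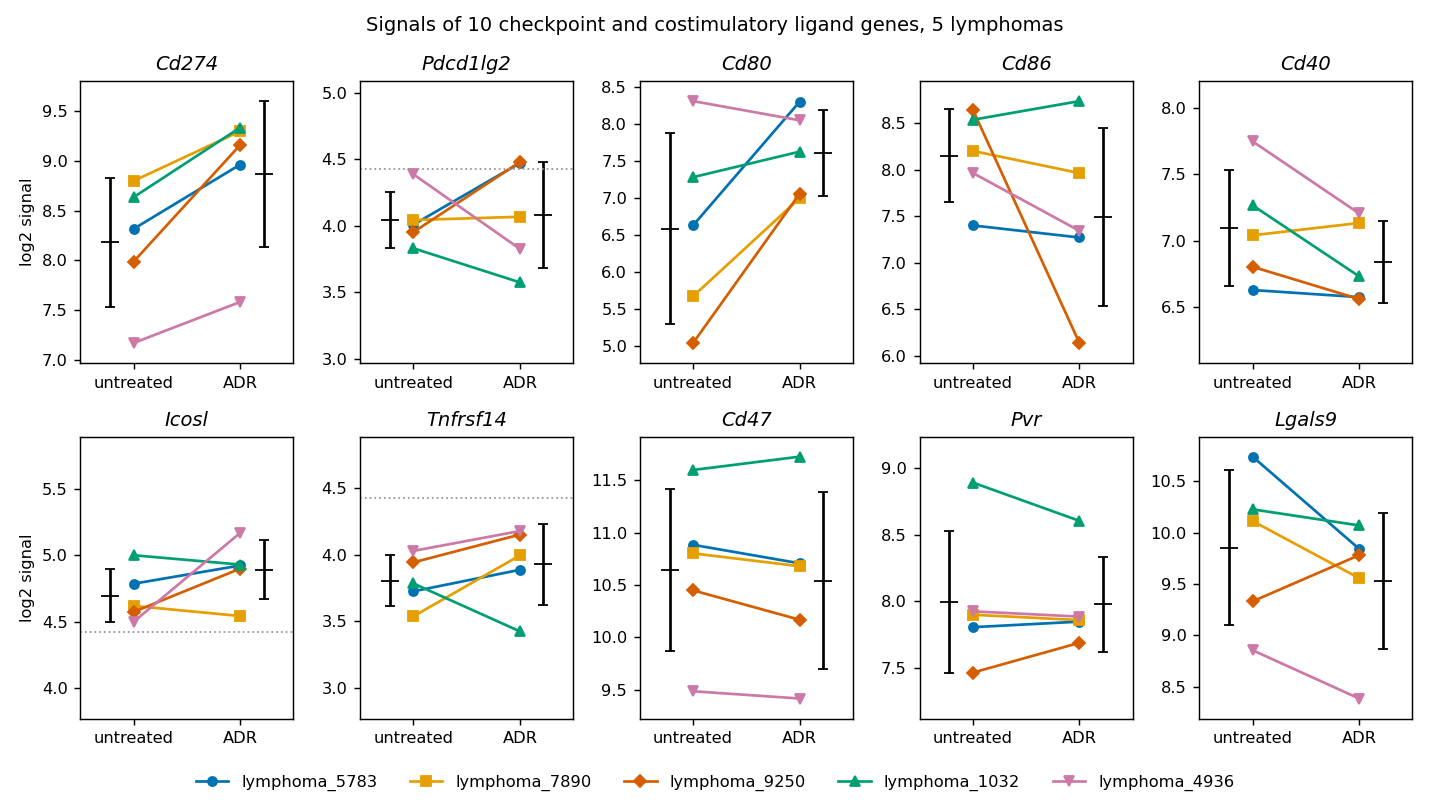
Log2 signals (vertical axes, each panel with its own range) of the 10 genes in untreated and ADR cells. Each coloured line joins the 2 arrays of 1 lymphoma, black bars are the mean ± SD of 5 lymphomas, and the dotted line is the table median of 4.43. The lines of Cd274 all slope upward, from 7.17 to 8.80 untreated and from 7.58 to 9.33 with ADR.

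Cd274, which encodes PD-L1, had a higher signal with ADR in every lymphoma, 1.61-fold on average. Untreated signals were 7.17 in lymphoma_4936, 8.63 in lymphoma_1032, 7.99 in lymphoma_9250, 8.80 in lymphoma_7890 and 8.32 in lymphoma_5783. With ADR they were 7.58, 9.33, 9.16, 9.30 and 8.96 in the same order. The ADR and untreated ranges overlap. Lymphoma_4936 was the lowest in both conditions, and its ADR signal lay below the untreated signals of the other 4. Within pairs the changes were 0.41, 0.70, 1.17, 0.50 and 0.65, with a mean of 0.68 ± 0.29 (SD, n = 5). The spread of Cd274 between lymphomas, an SD of 0.67 of the pair means, was about as large as the mean change. Cd274 had 1 probe set, so no second probe set could be set beside these values.

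Pdcd1lg2 encodes PD-L2, the other PD-1 ligand, and lies next to Cd274 in the RefSeq gene order. Its untreated signals ran from 3.83 to 4.39 and its ADR signals from 3.57 to 4.48, and only the ADR arrays of lymphoma_5783 and lymphoma_9250 exceeded the table median. The changes were -0.56 in lymphoma_4936, -0.26 in lymphoma_1032, 0.53 in lymphoma_9250, 0.02 in lymphoma_7890 and 0.46 in lymphoma_5783. No common direction was seen, and at such signals a low transcript level cannot be told apart from array background. Of the other genes beside Cd274 with a probe set, Plgrkt, a plasminogen receptor gene, had a change of 0.29 ± 0.48, higher in 4 lymphomas and at -0.55 in lymphoma_1032. Rln1, a relaxin gene, and the long noncoding A930007I19Rik had mean signals below the table median in both groups. Jak2, a kinase of interferon signalling from the same chromosome, had a change of -0.02 ± 0.41.

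The proximal promoters of the PD-1 ligand pair are shown because only Cd274 was higher in all pairs. They are the 250 bases before the RefSeq start in GRCm38.p6, with capitals marking GAAAC or its reverse complement GTTTC, the core that interferon regulatory factors bind.
Cd274 promoter, chr19:29367188-29367437, + strand: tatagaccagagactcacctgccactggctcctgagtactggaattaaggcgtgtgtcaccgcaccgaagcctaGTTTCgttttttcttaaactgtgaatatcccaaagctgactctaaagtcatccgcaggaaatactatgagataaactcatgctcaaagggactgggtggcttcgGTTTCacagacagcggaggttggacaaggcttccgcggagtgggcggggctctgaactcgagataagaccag
Pdcd1lg2 promoter, chr19:29410669-29410918, + strand: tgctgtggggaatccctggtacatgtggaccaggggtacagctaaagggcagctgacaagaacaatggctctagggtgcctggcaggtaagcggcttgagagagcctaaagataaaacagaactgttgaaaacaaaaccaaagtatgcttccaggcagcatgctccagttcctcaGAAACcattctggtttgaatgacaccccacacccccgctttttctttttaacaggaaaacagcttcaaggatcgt
The Cd274 window holds 2 such cores, starting 176 and 72 bases before the start, and the Pdcd1lg2 window holds 1, starting 75 bases before it. A core of this kind occurs in 39.9% of all promoter windows of this length. The STAT element TTCNNNGAA (in 7.18% of windows), the E box CACGTG that Myc binds (6.05%) and the AP-1 form TGANTCA (6.87%), each searched on both strands, had no match in either window. These matches describe the letters and nothing was measured on the promoters.

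Cd80 and Cd86, the ligands of CD28 and CTLA-4, had mean changes of opposite sign. Cd80 was higher in 4 of 5 lymphomas, 2.03-fold on average, and Cd86 was lower in 4 of 5. Untreated Cd80 signals were 8.31 in lymphoma_4936, 7.28 in lymphoma_1032, 5.04 in lymphoma_9250, 5.67 in lymphoma_7890 and 6.63 in lymphoma_5783. In ADR cells the signals were 8.05, 7.62, 7.06, 6.99 and 8.30. The SD over lymphomas was 1.29 untreated and 0.58 with ADR in this probe set, 1.52 and 0.99 in 1451950_a_at, and 1.37 and 1.31 in 1427717_at. Changes of 1.67, 1.33 and 2.02 in lymphoma_5783, lymphoma_7890 and lymphoma_9250 stood beside 0.34 in lymphoma_1032 and -0.26 in lymphoma_4936, with a mean of 1.02 ± 0.95 (SD, n = 5). In lymphoma_5783, lymphoma_7890 and lymphoma_9250 the changes were above 1 in this probe set.

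Cd80 had 4 probe sets, and the 3 that passed the level filter gave the same sign in each lymphoma. Their mean changes were 1.02 ± 0.95, 0.59 ± 0.79 and 0.43 ± 0.56. Sizes differed: in 1451950_a_at the highest change was 1.60 in lymphoma_7890, and in 1427717_at it was 0.94 in lymphoma_9250. The highest untreated signal was in lymphoma_4936 in the used probe set and in lymphoma_1032 in these. The probe set 1454372_at lay below the table median on all arrays, with a change of 0.14 ± 0.31. The Cd80 promoter window is shown because Cd80 had the highest mean change of the 10 genes.
Cd80 promoter, chr16:38458683-38458932, + strand: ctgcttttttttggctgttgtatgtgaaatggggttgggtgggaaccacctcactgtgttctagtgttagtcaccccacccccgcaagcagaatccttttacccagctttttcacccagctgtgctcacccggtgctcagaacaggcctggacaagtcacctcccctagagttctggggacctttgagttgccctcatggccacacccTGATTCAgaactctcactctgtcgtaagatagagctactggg
Its capitals mark TGATTCA, which matches the searched AP-1 pattern TGANTCA with T at the open base N. The match starts 42 bases before the RefSeq start, and the other motifs named above had no match there. This pattern occurs in 6.87% of all windows, and AP-1 binding to it was not tested.

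Untreated Cd86 signals were 7.96 in lymphoma_4936, 8.53 in lymphoma_1032, 8.64 in lymphoma_9250, 8.20 in lymphoma_7890 and 7.40 in lymphoma_5783. The ADR signals were 7.34, 8.73, 6.14, 7.96 and 7.27. Most of the mean came from lymphoma_9250, which had the highest untreated and the lowest ADR signal. Changes were -0.62, 0.20, -2.50, -0.24 and -0.13. Their mean was -0.66 ± 1.07 (SD, n = 5), and leaving out lymphoma_9250 gave -0.20. The second Cd86 probe set, 1420404_at, was lower in all 5 lymphomas, with changes of -0.59, -0.57, -2.11, -0.28 and -0.90 and a mean of -0.89 ± 0.72. The probe sets thus differed in sign in lymphoma_1032 and in size in lymphoma_5783. In each lymphoma the Cd80 change exceeded the Cd86 change, by 0.36 in lymphoma_4936, 0.14 in lymphoma_1032, 4.52 in lymphoma_9250, 1.56 in lymphoma_7890 and 1.80 in lymphoma_5783. With the second Cd86 probe set these differences were 0.33, 0.92, 4.13, 1.61 and 2.57.

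**Figure D2:**
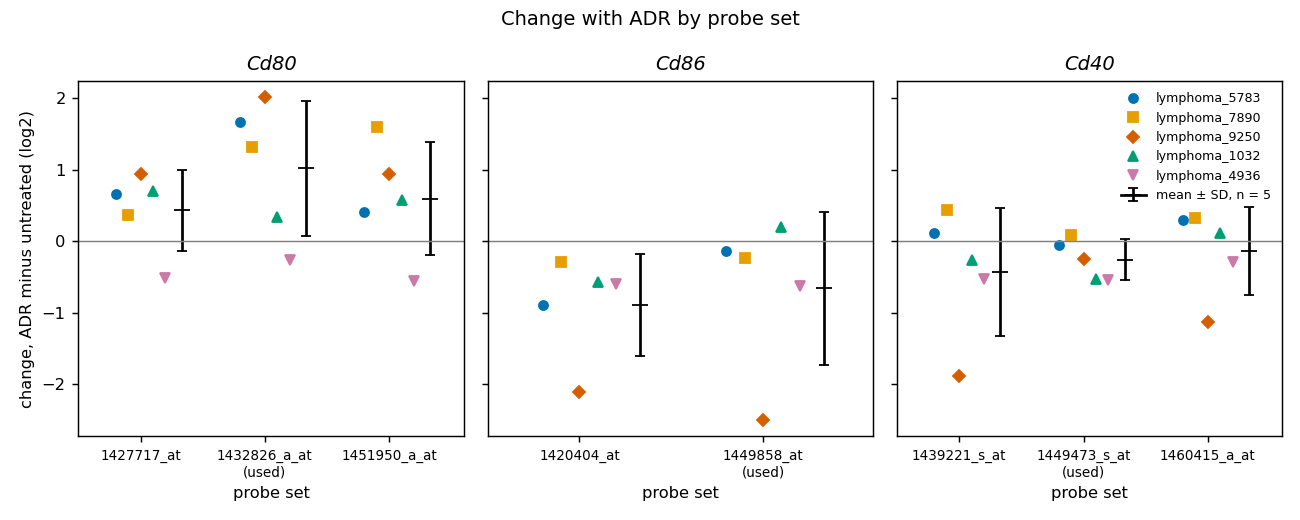
Change with ADR (log2, vertical axis) for every probe set of Cd80, Cd86 and Cd40 that passed the level filter. Points are the 5 lymphomas and black bars are the mean ± SD, and "(used)" marks the probe set that stands for the gene. All Cd80 probe sets are below 0 in lymphoma_4936 and above 0 in the others, and Cd86 reaches -2.50 in lymphoma_9250.

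Cd40, the receptor through which B cells take help from CD40 ligand on T cells, had a mean change of -0.26 ± 0.28 (SD, n = 5). Untreated signals were 7.75 in lymphoma_4936, 7.27 in lymphoma_1032, 6.81 in lymphoma_9250, 7.04 in lymphoma_7890 and 6.63 in lymphoma_5783. Signals with ADR were 7.21, 6.73, 6.56, 7.14 and 6.58. The groups overlapped, and in this probe set the lowest changes were -0.53 in lymphoma_1032 and -0.54 in lymphoma_4936. The other Cd40 probe sets, 1439221_s_at and 1460415_a_at, had mean changes of -0.42 ± 0.90 and -0.14 ± 0.61 and were higher in 2 and 3 of 5 lymphomas. In lymphoma_9250 the used probe set changed by -0.24 and these by -1.89 and -1.13. The probe sets differed in sign in lymphoma_1032 (-0.53, -0.26 and 0.12) and lymphoma_5783 (-0.05, 0.12 and 0.29). In lymphoma_9250 the Cd86 probe sets and these other Cd40 probe sets were lower by more than 1. Cd274 was higher there by 1.17. Cd80 was higher by 2.02 in its used probe set and by 0.94 in 1427717_at and in 1451950_a_at.

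Icosl, the ligand of ICOS on helper T cells, was just above the level filter, and Tnfrsf14, which encodes HVEM, the partner of BTLA and LIGHT, was below it. Untreated Icosl signals ran from 4.50 to 5.00 and ADR signals from 4.54 to 5.17. The Icosl change was 0.20 ± 0.31 (SD, n = 5), with its highest value, 0.67, in lymphoma_4936, without which the mean was 0.08. Its second probe set, below the table median on all arrays, gave -0.07 ± 0.28. Tnfrsf14 lay between 3.42 and 4.18 on all arrays, under the table median on each of them, with a change of 0.12 ± 0.30, or 0.04 without lymphoma_7890 and 0.24 without lymphoma_1032. For these genes no direction was shared by all lymphomas.

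Cd47, the phagocytosis checkpoint, had signals that differed more between lymphomas than between conditions. Untreated signals were 9.48 in lymphoma_4936, 11.60 in lymphoma_1032, 10.45 in lymphoma_9250, 10.80 in lymphoma_7890 and 10.88 in lymphoma_5783. After ADR they were 9.41, 11.73, 10.17, 10.68 and 10.71. Each lymphoma kept its place in this order, and the SD of the pair means between lymphomas, 0.81, stood beside a change of -0.10 ± 0.15 (SD, n = 5), which was -0.06 without lymphoma_9250 and -0.16 without lymphoma_1032. Of its 5 probe sets 3 passed the filter, all with lymphoma_4936 as the lowest in both groups and with mean changes of -0.10, -0.10 and -0.26. The probe set 1419554_at was lower in all 5 lymphomas and had a change of -0.73 in lymphoma_4936.

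Pvr encodes CD155, which binds the activating CD226 and the inhibitory TIGIT and CD96. Untreated signals were 7.92 in lymphoma_4936, 8.89 in lymphoma_1032, 7.46 in lymphoma_9250, 7.90 in lymphoma_7890 and 7.80 in lymphoma_5783. ADR cells had signals of 7.88, 8.60, 7.69, 7.86 and 7.85. The change was -0.02 ± 0.18 (SD, n = 5), or 0.06 with each array centred on its median, and lymphoma_1032 was the highest in both conditions. Of 7 Pvr probe sets 5 passed the filter, with mean changes between -0.17 and -0.02; in lymphoma_1032 they ranged from -1.50 to -0.29. The 5 had their highest untreated signal in lymphoma_1032.

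Lgals9 encodes galectin-9, a secreted lectin that binds TIM-3. Untreated signals were 8.85 in lymphoma_4936, 10.23 in lymphoma_1032, 9.33 in lymphoma_9250, 10.11 in lymphoma_7890 and 10.74 in lymphoma_5783. Treated cells had 8.38, 10.07, 9.78, 9.56 and 9.84. Lymphoma_9250 was the only pair with a higher ADR signal, and the group ranges overlapped. The changes were -0.47, -0.16, 0.45, -0.56 and -0.90, with a mean of -0.33 ± 0.51 that was -0.18 without lymphoma_5783 and -0.52 without lymphoma_9250. Cd274, Cd47 and Lgals9 all had their lowest signals, untreated and with ADR, in lymphoma_4936, which had the highest untreated Cd40.

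**Figure D3:**
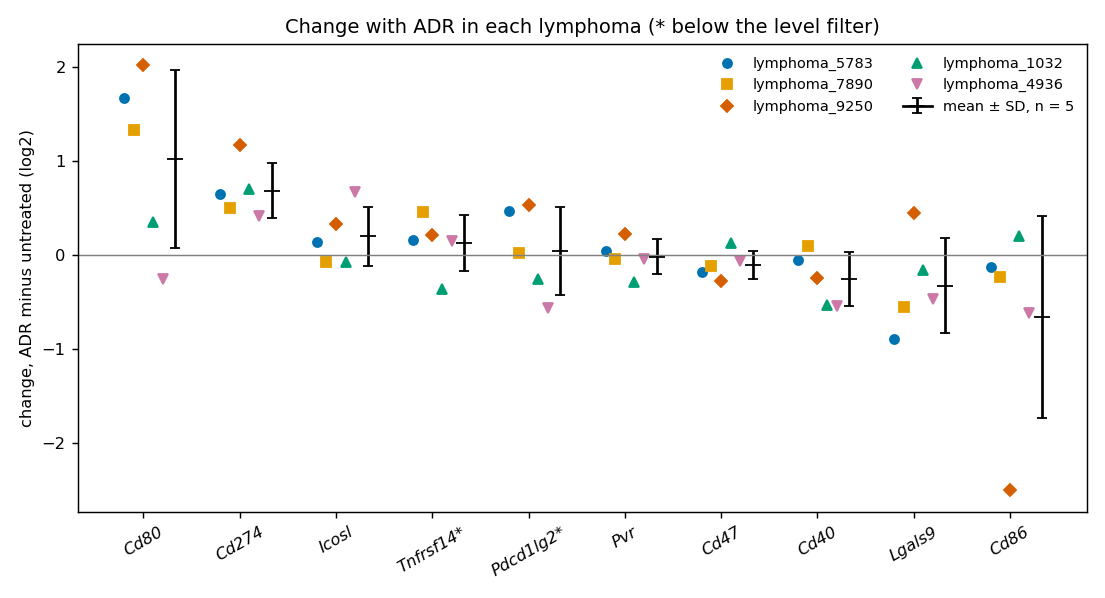
Change with ADR (log2, vertical axis) of the 10 genes, ordered by mean change. Points are the 5 lymphomas, black bars the mean ± SD, and an asterisk marks a gene below the level filter. Cd80 (1.02) and Cd274 (0.68) have the highest means and Cd86 (-0.66) the lowest, and lymphoma_9250 gives the highest Cd80 and Cd274 and the lowest Cd86 value.

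Lymphoma by lymphoma, 7 of the 10 genes had a higher signal with ADR in lymphoma_9250, 6 in lymphoma_5783, 5 in lymphoma_7890, 4 in lymphoma_1032 and 3 in lymphoma_4936. In no lymphoma did all 10 genes have the same sign. The genes whose profile over the 10 arrays was most like that of Cd274, by the root mean square difference of signals centred on each gene's mean, were Grn at 0.18, Aldh3b1 at 0.22, Galnt7 at 0.26, Plxnb2 at 0.27 and Psap at 0.29, where the median over 11471 genes was 0.80. Grn, the progranulin gene, had a change of 0.50 ± 0.18 and Psap, which encodes the precursor of the saposins of lysosomal lipid breakdown, of 0.58 ± 0.41. Aldh3b1, an aldehyde dehydrogenase, had 0.65 ± 0.49, Plxnb2, a semaphorin receptor, 0.47 ± 0.17 and Galnt7, a glycosyltransferase of mucin-type glycans, 0.35 ± 0.15. All of them had higher signals in 5 of 5 lymphomas, and since they were selected for likeness to Cd274 this direction is part of the selection.

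Other genes of the same routes were taken from 5 lists. Over all tested genes 0 list genes had an adjusted p below 0.05 in either direction, and the smallest adjusted p of any gene was 0.551. At an unadjusted p below 0.05, where 3.97% of all genes were higher and 4.52% lower, the list of further surface ligands and checkpoint genes had 5 of 22 tested genes higher and 1 lower, with a median change of 0.11. Tnfsf9, the 4-1BB ligand, had a change of 0.42 ± 0.20 and Cd48, a ligand of CD244, of 0.45 ± 0.28, both higher in 5 of 5 lymphomas. Cd24a, a glycoprotein of immature B cells, had -0.48 ± 0.31, lower in 5 of 5. Each of the 3 had an adjusted p of 0.565 in limma.

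The list of binding partners of the 10 proteins held receptors and also TNF family ligands such as Cd40lg. Of its 15 genes with a probe set 7 were tested. At an unadjusted p below 0.05, 1 was higher and 0 were lower, and the median change was -0.07. Btla, which B cells themselves express, had a change of 0.42 ± 0.31, higher in 5 of 5 lymphomas. Sirpa, the CD47 receptor of myeloid cells, had 0.54 ± 1.11 and reached 2.41 in lymphoma_5783. Ctla4 had -0.28 ± 1.40 and Cd28 0.03 ± 1.34, both with changes of either sign. Pdcd1 and Cd40lg did not pass the level filter, with Pdcd1 above the table median on 4 and Cd40lg on 1 of 10 arrays.

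In the interferon gamma and JAK-STAT list, the best known route to Cd274, 19 of 21 genes were tested, 1 was higher and 0 were lower at an unadjusted p below 0.05, and the median change was 0.00. Gbp2, an interferon-induced GTPase, had a change of 0.71 ± 0.66, Irf3, a factor that induces type I interferon, of 0.22 ± 0.15 and Cxcl10, an interferon-induced chemokine, of -0.71 ± 1.14. Irf1, known to act on the Cd274 promoter, had a change of 0.00 ± 0.33. Of 20 further regulators of PD-L1 and CD47, 0 were higher and 2 lower, with a median of 0.03. Brca2 had -0.60 ± 0.40, the NF-kB subunit gene Rel -0.59 ± 0.58 and the checkpoint kinase gene Chek1 -0.47 ± 0.55. Cmtm6, which keeps PD-L1 protein at the surface, had 0.08 ± 0.30 and Myc 0.35 ± 0.44. Of 15 tested CD40 signalling genes 1 was higher and 1 lower, with a median of -0.13. Ikbkg, the NEMO subunit of the IkB kinase, had 0.39 ± 0.27, Relb -0.58 ± 0.52 and Tnfaip3, the A20 inhibitor of NF-kB, -0.61 ± 0.75.

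The arrays measured RNA of whole cultures, so fewer cells of a type and less RNA per cell cannot be told apart. B-cell markers were present, and 15 of 17 with a probe set passed the filter. Cd79a had a mean untreated signal of 9.91, Ms4a1 of 8.56 and Pax5 of 5.26. Ms4a1 was at 5.09 untreated and 4.79 with ADR in lymphoma_1032, and at 7.87 to 10.98 untreated in the others. Pax5 was at 4.23 with ADR in lymphoma_1032, below the table median. The summed linear signal of the B-cell list ran from 10830 to 22116 untreated and from 10027 to 24615 with ADR. The tested B-cell markers had an average change of -0.35 in lymphoma_4936, -0.30 in lymphoma_1032, 0.52 in lymphoma_9250, 0.26 in lymphoma_7890 and 0.21 in lymphoma_5783. Cd80 changes beside them were -0.26, 0.34, 2.02, 1.33 and 1.67. Of the B-cell markers 1 was higher and 0 lower at an unadjusted p below 0.05, beside 3.97% and 4.52% of all tested genes. Macrophages can also carry PD-L1, CD80 and CD86. Of 19 macrophage markers 14 were tested. At an unadjusted p below 0.05, 6 were higher and 0 lower, beside the same shares of all genes. The mean change was above 0 for all 14, with a median of 0.53. Csf1r had a mean untreated signal of 8.07, from 5.16 in lymphoma_4936 to 11.49 in lymphoma_7890. Adgre1 had 7.15, from 4.83 in lymphoma_4936 to 9.78 in lymphoma_7890. Csf1r changed by 0.75 ± 0.88 and Adgre1 by 0.10 ± 0.96, higher in 4 and 3 of 5 lymphomas. The 3 tested macrophage markers with the smallest p were Mmp12, Mpeg1 and Ctss. Their changes were 1.14 ± 0.76, 0.96 ± 0.75 and 0.40 ± 0.26, each higher in 5 of 5 lymphomas. The summed macrophage signal ran from 3858 to 27351 untreated and from 4704 to 46719 with ADR. The tested macrophage markers had an average change of 0.23 in lymphoma_4936, 1.05 in lymphoma_1032, -0.05 in lymphoma_9250, 0.22 in lymphoma_7890 and 1.42 in lymphoma_5783. In lymphoma_9250, where these markers had the lowest change, Cd274 and Cd80 in the used probe sets had their highest changes, 1.17 and 2.02. The summed macrophage signal was higher with ADR in each lymphoma: 1.22-fold in lymphoma_4936, 2.27 in lymphoma_1032, 1.20 in lymphoma_9250, 1.21 in lymphoma_7890 and 2.79 in lymphoma_5783. Untreated sums were 3858 in lymphoma_4936, 20572 in lymphoma_1032, 4012 in lymphoma_9250, 27351 in lymphoma_7890 and 9898 in lymphoma_5783. Untreated Cd274 (7.17, 8.63, 7.99, 8.80 and 8.32) ranked the lymphomas in the same order, while the ADR orders differed. Untreated Cd80 was highest in lymphoma_4936, at 8.31. A macrophage part in Cd274 was not tested. Without lymphoma_5783 and lymphoma_1032 the mean change was 0.69 for Cd274, 1.03 for Cd80 and -1.12 for Cd86. In the pairs kept the summed macrophage signal was also higher with ADR, 1.20 to 1.22-fold. Leaving out these lymphomas was therefore not a test of a macrophage part.

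**Figure D4:**
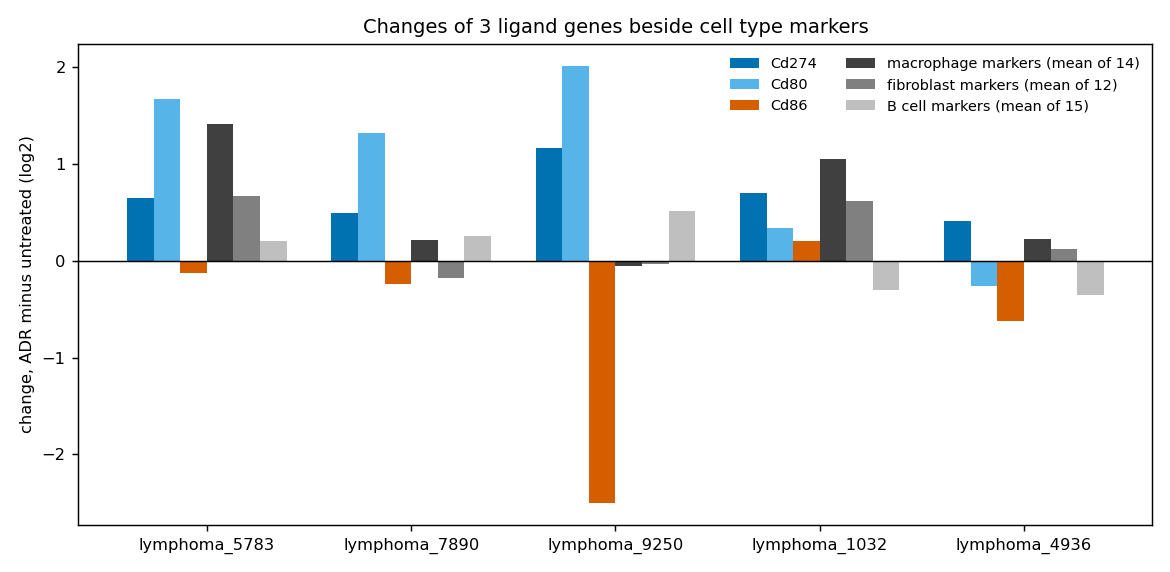
Change with ADR (log2, vertical axis) of Cd274, Cd80 and Cd86 in each lymphoma, beside the mean change of the tested macrophage, fibroblast and B-cell markers, with 1 bar per value. Macrophage markers are at 1.42 in lymphoma_5783 and 1.05 in lymphoma_1032, and Cd274 is above 0 in all 5 lymphomas.

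Fibroblast markers, which the feeder cells could add, had 12 of 18 genes tested, 3 higher and 1 lower at an unadjusted p below 0.05. Beside this and the counts that follow, 3.97% of all tested genes were higher and 4.52% lower. The fibroblast markers had mean changes of 0.62 in lymphoma_1032, 0.68 in lymphoma_5783 and -0.18 to 0.12 elsewhere. Their summed signal ran from 650 to 2457 untreated and from 717 to 4584 with ADR. The mean change was above 0 for 9 of the 12 and below 0 for 3. Fn1 had a change of 0.66 ± 0.45 and Lox of 0.68 ± 0.49, both higher in 5 of 5 lymphomas. Col1a1, lower in 5 of 5, had -0.43 ± 0.13 from an untreated mean of 5.13. Dendritic-cell markers had 7 of 11 tested, 1 higher and 0 lower, with Itgax above the table median on 1 of 10 arrays and summed signals of 526 to 1617 untreated and 642 to 960 with ADR. T-cell markers had 6 of 11 tested with 0 higher and 0 lower, an untreated Cd3e signal of 5.31 and sums of 499 to 1113 and 566 to 1106. NK-cell markers had 1 of 7 tested with 0 higher and 0 lower, and sums of 88 to 155 and 83 to 233. Neutrophil markers had 3 of 11 tested, 1 higher and 0 lower, with sums of 234 to 7895 and 223 to 16835, the highest in both groups in lymphoma_1032. The part of these cells, B cells included, in the ligand values was not tested.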

How the data were processed

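Total RNA of 10 cultures was measured on Affymetrix mouse arrays. The deposited log2 signals, 1 per probe set and array, were produced by the authors; RMA and Partek are named in the submitters' processing notes, without versions or settings. The log base was read from the range of the values. Array medians were 4.43 to 4.50 on 9 arrays and 4.15 on the ADR array of lymphoma_1032; arrays are limited in precision by their number, 5 per group.

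Of 45101 probe sets the platform annotation gave 34945 a single symbol, 932 several and 9160 none; among the 34945, 34741 have a gene ID held in the RefSeq table (GRCm38.p6). Genes above the table median on at least 5 of 10 arrays entered a limma fit (version 3.58.1, R 4.3.3, lmFit and eBayes) blocked on the lymphoma, two-sided, Benjamini-Hochberg over 11472 genes, threshold 0.05. Per the labels, a number marks 1 lymphoma, whose cells gave both arrays; the pair's deviations from the group means correlated between 0.51 and 0.79 across genes. The fit was tested on simulated data.

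The genes, lists and alternatives were chosen with earlier results of these data known. Named were the 10 genes, the 3 tested genes with the smallest p of each list and a fixed set. Also named were 2 genes on each side of Cd274 and the 5 most like it. Of the markers, the defining ones were named and, for macrophages and fibroblasts, the 3 tested genes with the smallest p. Suv39h1 and some list genes are not analysed here. Promoter windows are from RefSeq, with 7 of the 10 genes matched. Alternatives were no block, other filters, the mean of all probe sets or each other one, other scalings, another prior, array weights and leaving out lymphomas.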

Additional observations from a re-analysis of the deposited data

Results flagged for a closer look

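In 57 groups of 5 values (the untreated signals, ADR signals and changes of 19 probe sets of the ligand genes above the level filter) 6 had 1 value far from the other 4 by Dixon's criterion, which chance alone meets in about 1 of 20 groups. Probe sets of a gene share their samples, so these groups are not independent. Lymphoma_4936 gave 3 of the 6: the ADR signal of Cd274 was 7.58 where the others began at 8.96, and for the Cd47 probe set 1419554_at the ADR signal was 7.84 where the others began at 9.56, with a change of -0.73 where the others lay between -0.22 and -0.06. Lymphoma_1032 was high in an untreated Pvr signal, 6.68 in 1450295_s_at, and in an ADR Pvr signal, 8.60 in 1451160_s_at. Lymphoma_9250 had a low ADR Pvr signal of 5.93 in 1423905_at.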

How the results depend on the processing

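The count of genes with an adjusted p below 0.05 was 0 in limma under all alternatives run. The count at an unadjusted p below 0.05 was 973 with the lymphoma block, 262 with no replicate block, 499 without lymphoma_5783 and lymphoma_1032, and 551 to 1446 when 1 lymphoma was left out. Of the 973 genes 455 were higher and 518 lower; with each array centred on its median the split was 882 and 294, after quantile normalization 602 and 440, and without lymphoma_1032, whose ADR array had the low median, 551 and 289. With and without the block 0 genes passed at an adjusted p below 0.05. The mean change of Cd274 was between 0.56 and 0.77 in all 14 alternatives and between 0.56 and 0.75 when 1 lymphoma was left out. Leaving out the block, other filters and another prior cannot alter the mean change of any gene. Nor can the mean of all probe sets for a gene with 1, such as Cd274. Those settings gave 0.68 for Cd274 by construction, and they are counted among the alternatives of each gene. Cd80, Cd86, Cd40, Tnfrsf14 and Lgals9 kept their sign in the alternatives run, with Cd86 from -1.12 to -0.20 and Cd80 from 0.14, in its weakest probe set, to 1.34. The sign turned in 3 of 14 alternatives for Pdcd1lg2 and 4 of 20 for Pvr, whose mean changes were near 0. It turned in 1 of 15 for Icosl and 1 of 18 for Cd47. Both of these turns came from a probe set below the table median on all arrays. Probe sets near the table median (Icosl, Pdcd1lg2, Tnfrsf14) limit what can be read at their signal.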
